A study of Mus musculus with 88 samples.

Results

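Fibroblast growth factor (FGF) receptors and the genes of the ERK feedback loop were followed through differentiation of mouse embryonic stem cells (ESCs) that lack subunits of Polycomb Repressive Complex 2 (PRC2). The set was a fixed list of 10 genes, chosen by name and function and not by a threshold on any value: the ligands Fgf4 and Fgf15, the receptors Fgfr1, Fgfr2, Fgfr3 and Fgfr4, the feedback inhibitors Spry2, Spry4 and Dusp6, and the transcription factor Etv4. Earlier results of these data were known when the list was chosen, so the choice was not blind to them. All 10 were listed among the 53697 genes of the mesoderm table, the 54393 genes of the endoderm table and the 26007 genes of the bulk embryoid body table, and 9 of them, all but Fgfr4, among the 15830 genes of the single-cell table. All 10 passed the filter on low values in each bulk fit.

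The series held 88 samples. In both directed experiments, ESC monolayers of 3 genotypes (E14 WT of 129/Ola background, Mtf2 null and Jarid2 null) were harvested undifferentiated and 5, 24 and 48 h after induction, with 2 libraries per genotype and time and 24 libraries per experiment. Mesoderm induction used Activin A, BMP4, CHIR99021 and FGF2, followed by A-83-01 with BMP4, and endoderm induction used Activin A, CHIR99021 and FGF2, followed by Activin A with DM3189. FGF2, itself a ligand of the receptors described here, was thus added to WT and mutant cultures alike during the first step and left out of the second. Other components changed at the same switch, so the parts of single components cannot be told apart. The sources do not settle whether the last harvest is counted from induction or from the second step. The bulk embryoid body series held days 0, 2, 4 and 7 of lines labelled Mtf2 null, Jarid2 null and Eed null, compared here with the WT lines Pcl1-3 WT, JM8 and J1 in that order. Its day 0 columns are headed as monolayers (mono) and its later columns as embryoid bodies (eb). The step from day 0 to 2 thus changes the form of culture together with time. Single cells of the embryoid body course of 4 genotypes (E14 WT and the mutants of Mtf2, Jarid2 and Eed) were profiled at days 0, 4, 7 and 10, with 1 library per genotype and day. The study calls this day 0 undifferentiated, while the sample titles name embryoid bodies at every day. Differences of later days from day 0 may thus hold a change in the form of culture together with time. Before differentiation every line was grown in serum with LIF, and the sources name no separate clones of a mutant. The directed and single-cell mutants were compared with E14 WT, while the lines named as background-matched are those of the bulk embryoid bodies, so genotype and line of origin cannot be told apart in the directed and single-cell comparisons. The study describes the directed duplicates as technical, so p-values measure only the spread between these libraries.

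FGF ligands bind receptor tyrosine kinases and signal through RAS, RAF and MEK to the kinases ERK1 and ERK2. Active ERK induces ETS-family transcription factors such as ETV4 and, with them, its own brakes: the Sprouty proteins (SPRY2, SPRY4), which act between receptor and RAF, and DUSP6, a phosphatase that removes the activating phosphates from ERK in the cytoplasm. In ESCs the autocrine ligand FGF4 is the main source of this signal and is required for exit from pluripotency, FGFR1 and FGFR2 are its principal receptors, while FGFR2 marks primitive endoderm in the blastocyst. FGF15 is an endocrine-type ligand that binds receptors together with the co-receptor beta-Klotho (encoded by Klb) and is expressed in the embryonic neural tube, while FGFR3 and FGFR4 are receptors of later tissues, FGFR4 in particular of liver.

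PRC2 binds mainly at promoters rich in CpG dinucleotides, so the sequences just before the start sites of 4 of the members called between mutant and WT are shown, with CpG in capitals. RefSeq promoters (build GRCm38.p6, 1 start per gene) matched 6 of the 10 genes, Fgf4, Fgfr2, Fgfr3, Fgfr4, Spry2 and Dusp6, and did not match Fgf15, Fgfr1, Spry4 and Etv4. Each line gives the 250 bases upstream, 5′ to 3′ on the strand of the gene: Fgf4 at chr7:144861136-144861385 on the plus strand, Fgfr2 at chr7:130266809-130267058 on the minus strand, Fgfr3 at chr5:33721474-33721723 on the plus strand, and Spry2 at chr14:105896820-105897069 on the minus strand. The windows of Fgf4 and Fgfr2 lie inside the longer gene models of the annotation used for gene lengths, so other starts of these genes may lie elsewhere.
Fgf4: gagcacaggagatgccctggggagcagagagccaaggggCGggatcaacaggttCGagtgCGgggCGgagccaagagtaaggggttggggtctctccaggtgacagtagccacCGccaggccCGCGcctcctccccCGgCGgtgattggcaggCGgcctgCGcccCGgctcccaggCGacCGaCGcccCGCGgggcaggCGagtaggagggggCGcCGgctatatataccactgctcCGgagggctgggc
Fgfr2: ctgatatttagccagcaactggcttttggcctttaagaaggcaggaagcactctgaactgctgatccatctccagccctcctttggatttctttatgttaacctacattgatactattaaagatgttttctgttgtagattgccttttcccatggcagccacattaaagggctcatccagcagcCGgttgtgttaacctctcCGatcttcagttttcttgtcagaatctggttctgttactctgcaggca
Fgfr3: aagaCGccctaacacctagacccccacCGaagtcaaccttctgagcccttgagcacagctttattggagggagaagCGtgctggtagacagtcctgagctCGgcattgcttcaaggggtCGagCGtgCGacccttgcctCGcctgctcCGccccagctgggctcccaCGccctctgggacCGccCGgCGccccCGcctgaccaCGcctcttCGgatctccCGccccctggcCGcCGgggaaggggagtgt
Spry2: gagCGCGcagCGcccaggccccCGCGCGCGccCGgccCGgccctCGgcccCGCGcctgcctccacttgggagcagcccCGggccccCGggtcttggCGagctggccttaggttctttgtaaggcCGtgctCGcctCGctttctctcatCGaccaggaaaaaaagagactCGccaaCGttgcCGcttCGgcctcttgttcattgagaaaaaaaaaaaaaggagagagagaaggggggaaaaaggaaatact

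Fgfr2 stood apart from the other matched members in this window. It held 2 CpG, a number that 80.6% of 27025 promoters reach or exceed, against a median of 6 over all promoters. Spry2 held 23, Fgf4 21, Fgfr3 19, Dusp6 16 and Fgfr4 15, and 13% to 27.5% of promoters held as many as these 5. The ETS core CCGGAAG, searched on both strands, was in none of the 6 windows and in 7.05% of all promoters. The CArG box of serum response factor was also in 0 of the 6 and in 1.4% of all. A missing match says only that these letters are not in this window.

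In the annotation (GRCm38), Fgf4 (ENSMUSG00000050917) lies on chromosome 7 at 144847367 to 144865243 and Fgf15 (ENSMUSG00000031073) on the same strand at 144896531 to 144900953, so that the 2 ligand genes are neighbours. Fgfr1 (ENSMUSG00000031565) lies on chromosome 8 at 25513654 to 25575718, Fgfr2 (ENSMUSG00000030849) on chromosome 7 at 130162451 to 133123350, Fgfr3 (ENSMUSG00000054252) on chromosome 5 at 33721674 to 33737068, and Fgfr4 (ENSMUSG00000005320) on chromosome 13 at 55152640 to 55168759. Spry2 (ENSMUSG00000022114) lies on chromosome 14 at 105891947 to 105896819, Dusp6 (ENSMUSG00000019960) on chromosome 10 at 99263231 to 99267489, and Etv4 (ENSMUSG00000017724) on chromosome 11 at 101769742 to 101785371. The identifier of Spry4 is ENSMUSG00000024427.

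Library totals ran from 9111880 to 16898264 estimated counts in the directed libraries and from 3005707 to 22944105 reads per column in the bulk embryoid bodies. The 16 single-cell libraries held 202 to 347 cells and 1339722 to 3889890 unique molecular identifiers (UMIs) each. Mtf2 stood at 30.2 to 38.9 CPM (counts scaled to equal library totals) in the Mtf2 null directed libraries and at 205.5 to 514.4 CPM in WT. Jarid2 was less separated, with 303.4 to 328.4 CPM in undifferentiated Jarid2 null libraries against 355.4 to 477.6 CPM in WT and overlapping ranges over the 4 times. The markers of the labelled lineages were low: the 4 definitive endoderm markers (Sox17, Foxa2, Cxcr4, Gsc) summed to 0.837 to 0.923 CPM in WT endoderm at 48 h. This was below the 1.52 to 2.07 CPM of undifferentiated WT libraries of that experiment. The 4 lateral mesoderm markers (Hand1, Foxf1, Kdr, Pdgfra) summed to 6.87 to 7.17 CPM in WT mesoderm at 48 h and to 2.59 to 3.16 CPM in its undifferentiated WT libraries. The pluripotent markers (Pou5f1, Nanog, Esrrb, Zfp42) were still at 1014 to 1303 CPM in the WT libraries at 48 h. Mesoderm, endoderm and lineage thus name the protocols here and not a cell type that was reached. The 48 h endoderm Jarid2 null columns carry another time in their headers and were matched by library number. In these bulk samples fewer cells of a type and less RNA per cell cannot be told apart. The mean chi-square over genes between the duplicates of a directed group, a measure of spread against sampling noise, ran from 2.63 to 22.73. It was highest in WT mesoderm at 48 h, the reference of the mutant comparisons at that time.

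Marker lists of other cell types differed between Mtf2 null and WT libraries in both directions. The 4 visceral endoderm markers (Amn, Ttr, Afp, Sox7) summed to 20.5 to 25.2 CPM in undifferentiated Mtf2 null libraries and 5.02 to 7.52 CPM in WT. They summed to 47.7 to 52.7 against 3.00 to 3.91 CPM in mesoderm at 48 h, and to 106.6 to 120.5 against 3.14 to 3.26 CPM in endoderm at 48 h. Ttr and Afp were at 0 in every WT library of endoderm at 48 h and none of the 4 markers was at 0 in the Mtf2 null libraries there. Definitive endoderm markers summed to 48.4 to 55.3 CPM and lateral mesoderm markers to 44.6 to 45.9 CPM in the same Mtf2 null libraries. Neural ectoderm markers were lower, at 3.97 to 5.15 CPM against 8.24 to 11.2 CPM in WT in undifferentiated cells and 2.98 to 3.12 against 6.09 to 7.53 CPM at 48 h of endoderm. Primitive streak markers at 24 h of endoderm were lower too, at 12.7 to 13.9 against 34.5 to 37.5 CPM. The part of such cells in the results that follow was not tested.

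A member was called in the directed experiments when edgeR's quasi-likelihood test gave a Benjamini-Hochberg adjusted p under 0.001 over all genes tested together with an absolute log2 fold change above 1. In undifferentiated cells, Mtf2 null libraries had a higher level of the receptor gene Fgfr2 and a lower level of Fgf15 than E14 WT, and Jarid2 null libraries had lower Fgf15 and Spry4 and higher Fgfr4. These were 2 of 10 members in Mtf2 null (1 up, 1 down), where 14.7% of 16655 genes were called, and 3 of 10 in Jarid2 null (1 up, 2 down), where 1.15% were called. The median log2 fold change of the 10 genes was 0.36 in Mtf2 null and -0.21 in Jarid2 null, beside -0.04 and -0.01 over all genes tested. Libraries with the same number in both experiments were closer to each other than duplicates were in 4 of 6 pairs, so the undifferentiated libraries may share RNA between experiments. With the same-numbered libraries summed, 2 of the 5 calls were made, and with the mesoderm series alone 3, both checks chosen after seeing the data.

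During mesoderm induction, 5 of the 6 member calls between Mtf2 null and WT were of receptor genes and 1 was of Etv4. The receptor calls were Fgfr2 up at 5, 24 and 48 h, Fgfr3 up at 48 h and Fgfr4 down at 24 h. They thus count Fgfr2 at each time, and Fgfr1 was not called. Counts of called members were 1 up of 10 at 5 h (7.56% of 18361 genes called), 1 up and 1 down at 24 h (5.72% called) and 3 up at 48 h (6.82% called). In Jarid2 null cells no member was called at 5 h, where edgeR called 0% of genes (2672 genes and 2 members had an unadjusted p under 0.05, and DESeq2 called 11 genes and 0 members), 1 member was called down at 24 h (1.97% called), and 1 up at 48 h (0.169% called). In WT cells themselves, 1 member was called down between undifferentiated and 5 h (4.13% of genes called), 1 down from 5 to 24 h (4.41%), and 3 up and 1 down from 24 to 48 h (4.16%). A test of whether the mutant effect changed between the undifferentiated state and 48 h called 1 member up in Mtf2 null (2.71% of genes called). In Jarid2 null the same edgeR test called 0 members (0.0545% of genes called), with 5 members at an unadjusted p under 0.05 and 2 called by DESeq2.

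During endoderm induction, 6 of the 8 member calls in Mtf2 null cells were of receptor genes. These were Fgfr2 at 5, 24 and 48 h, Fgfr3 at 24 and 48 h and Fgfr4 at 48 h, so the same genes are counted at several times. In Mtf2 null, 1 member was called up at 5 h (7.61% of 19261 genes called), 2 up at 24 h (6.58%), and 3 up and 2 down at 48 h (10.5%). In Jarid2 null, edgeR called 0 of 10 members at 5 h (0.0363% of genes called), at 24 h (0.0312%) and at 48 h (0.125%), where 1, 4 and 5 members had an unadjusted p under 0.05 and DESeq2 also called 0 at each time. WT cells had 1 member called down by 5 h (2.1% of genes called), 2 down from 5 to 24 h (2.5%), and 2 up and 2 down from 24 to 48 h (3.88%). The change of the mutant effect to 48 h was called for 3 members in Mtf2 null (1 up, 2 down, 5.24% of genes called) and for 1 member, down, in Jarid2 null (0.514%). The change of WT cells to 48 h differed between mesoderm and endoderm for 2 of 10 members (1.35% of 19601 genes called).

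**Figure D1:**
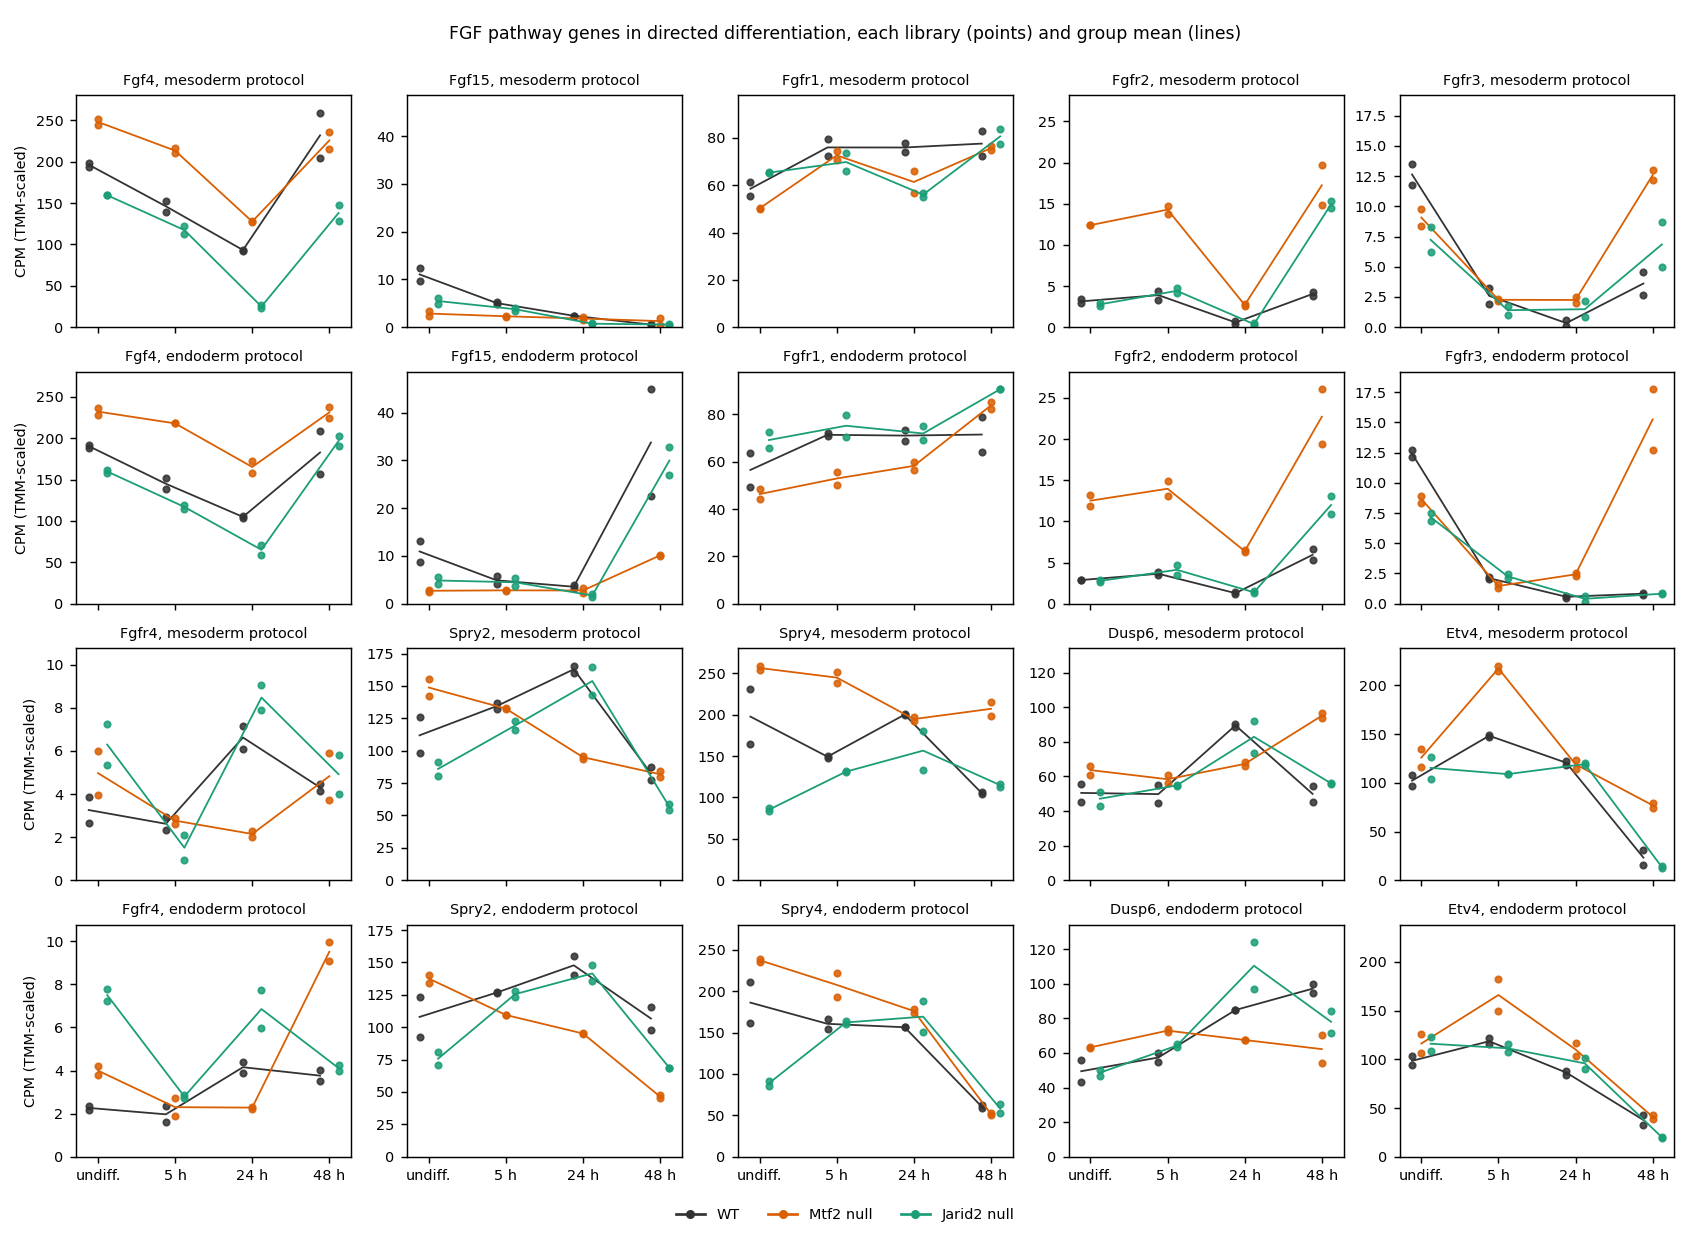
Level of each of the 10 genes in CPM (linear axes that start at 0) against time in the mesoderm and endoderm protocols, with 1 point per library and lines through the genotype means. Fgfr2 of Mtf2 null (orange) runs above WT (black) at every time in both experiments, Fgf15 climbs at 48 h in endoderm and not in mesoderm, and Fgf4 of Jarid2 null (green) is lowest at 24 h of mesoderm.

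Fgf4, the autocrine ligand of ESCs, was among the most abundant members. Per kilobase of exon, the 4 undifferentiated WT libraries held 59.1 to 62.3 CPM of Fgf4, 44.5 to 60.3 CPM of Spry2, 33.96 to 48.58 CPM of Spry4 and 30.2 to 34.8 CPM of Etv4, so that the ranges of Fgf4 and Spry2, of Spry2 and Spry4, and of Spry4 and Etv4 overlapped. Below them came Dusp6 at 13.8 to 17.8, Fgfr1 at 5.00 to 6.45, Fgf15 at 2.88 to 4.27, Fgfr3 at 1.64 to 1.89, Fgfr4 at 0.615 to 1.10 and Fgfr2 at 0.275 to 0.327 CPM per kilobase, and none of these ranges overlapped with the next. Fgfr1 was thus the leading receptor gene of these directed libraries and Fgfr2 the lowest of the 10. Fgfr2 was above Fgfr3 in the other assays at day 0, in values not divided by exon length. In WT single cells Fgfr2 was at 7.36 (4.61 to 11.1) and Fgfr3 at 2.01 (0.737 to 4.37) CPM. The bulk WT lines had 12.87 to 15.19 CPM of Fgfr2 and 6.399 to 9.39 CPM of Fgfr3.

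In WT mesoderm, Fgf4 stood at 199 and 194 CPM undifferentiated, at 153 and 139 CPM at 5 h, at 92.6 and 93.8 CPM at 24 h and at 259 and 204 CPM at 48 h. It dipped at 24 h, the end of the first induction step, and was back at or above its starting level at 48 h. The change from 24 to 48 h was a log2 fold change of 1.30 ± 0.11 (SE, edgeR adjusted p = 3.55e-08). In Jarid2 null mesoderm the dip was deeper, with 23.7 and 26.3 CPM at 24 h, the lowest Fgf4 of all 48 directed libraries. The difference from WT was a log2 fold change of -1.91 ± 0.12 (edgeR adjusted p = 1.47e-08), a 3.75-fold lower level, and it was called under every alternative run. In the same Jarid2 null libraries the pluripotent markers summed to 1128 to 1299 CPM against 1732 to 1789 CPM in WT and the primitive streak markers to 30.4 to 47.3 against 68.5 to 73.2 CPM, and their part in the Fgf4 values was not tested. At 48 h the Jarid2 null libraries had 128.5 and 147.5 CPM and the difference from WT, -0.73 ± 0.11, stayed under the fold threshold. In endoderm at 24 h the Jarid2 null libraries had 71.5 and 58.7 CPM against 106 and 103 CPM in WT and the call was not made. In undifferentiated cells every Mtf2 null library had more Fgf4 than every WT library, 228 to 252 against 189 to 199 CPM, with a log2 fold change of 0.34 ± 0.07 that did not reach the fold threshold. Single cells at day 0 had the opposite order, with 233.9 (219 to 249.6) CPM in Mtf2 null and 270 (251.7 to 289.2) in WT. The bulk day 0 samples had 303.1 CPM for the Mtf2 null label and 139.9 CPM in Pcl1-3 WT.

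Fgf15, the endocrine-type ligand, was low in ESCs and later differed between the endoderm and mesoderm protocols. The undifferentiated WT libraries held 8.81, 9.67, 12.4 and 13.1 CPM, the Jarid2 null libraries 4.17, 4.76, 5.55 and 6.20 CPM, and the Mtf2 null libraries 2.35, 2.46, 2.96 and 3.36 CPM. The 3 genotypes did not overlap, with WT highest and Mtf2 null lowest. The log2 fold change was -1.95 ± 0.18 in Mtf2 null (adjusted p = 3.6e-07), called under every alternative, and -1.10 ± 0.17 in Jarid2 null (adjusted p = 4e-04). The Jarid2 null call ended without any of 5 of the 8 libraries (Jarid2 null mesoderm 1, endoderm 1 and endoderm 2, WT mesoderm 1 and endoderm 1), with values between -1.18 and -0.95 over all 8 such fits, and in either series alone. It also ended with same-numbered libraries summed (-1.095, edgeR adjusted p = 0.0131). In single cells at day 0 Fgf15 was also lower, at 14.7 (11.1 to 19.0) CPM in Mtf2 null and 13.7 (9.96 to 18.4) in Jarid2 null against 29.8 (23.9 to 36.6) in WT. In the bulk day 0 samples the order was the opposite, with 5.596 CPM for the Mtf2 null label and 1.676 in Pcl1-3 WT, and 2.99 for the Jarid2 null label and 0.844 in JM8.

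In WT endoderm Fgf15 went from 3.90 and 3.20 CPM at 24 h to 44.9 and 22.5 CPM at 48 h, a log2 fold change of 3.29 ± 0.29 (adjusted p = 5.73e-08). In WT mesoderm it went the other way over the whole course, to 0.667 and 0.407 CPM at 48 h. The change to 48 h was lower in mesoderm than in endoderm by 5.96 ± 0.50 on the log2 scale (edgeR test of the difference, adjusted p = 3.61e-10), the largest difference between the protocols of the 10 genes. Jarid2 null endoderm reached 27.02 and 32.89 CPM, inside the WT range, and Mtf2 null endoderm 10.1 and 10.2 CPM. The Mtf2 null libraries lay below both WT libraries, with a log2 fold change of -1.75 ± 0.26 (adjusted p = 1.69e-05) that ran from -2.17 to -1.16 when 1 library was left out.

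Fgfr1, the receptor that carries most FGF4 signal in ESCs, had the narrowest range of the 10 genes. Over all 48 directed libraries it ran from 44.1 to 90.7 CPM, and it was called in none of the comparisons between genotypes, times or lineages. Undifferentiated Mtf2 null libraries, at 44.1 to 50.3 CPM, lay at the low end and Jarid2 null libraries, at 65.1 to 72.4 CPM, above all 4 WT libraries, at 49.4 to 63.7 CPM, but neither difference was called (-0.23 ± 0.08, adjusted p = 0.0316, and 0.21 ± 0.08, adjusted p = 0.0809).

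Fgfr2, the receptor associated with primitive endoderm, was higher in Mtf2 null than in WT cells in each of the 7 comparisons of the directed experiments. Undifferentiated WT libraries had 2.84, 2.90, 2.91 and 3.38 CPM, Jarid2 null libraries 2.62, 2.62, 2.91 and 2.92 CPM, and Mtf2 null libraries 11.9, 12.4, 12.4 and 13.2 CPM. WT and Jarid2 null overlapped and every Mtf2 null library was above them, with a log2 fold change of 2.08 ± 0.13 (adjusted p = 3.81e-09), a 4.22-fold higher level. In mesoderm the log2 fold change was 1.88 ± 0.20 at 5 h, 2.23 ± 0.31 at 24 h and 2.11 ± 0.19 at 48 h, and in endoderm it was 1.92 ± 0.19, 2.33 ± 0.23 and 1.92 ± 0.18, with adjusted p from 1.9e-08 to 1.64e-05. Of these 7 calls 6 held under every alternative, and that at 24 h of mesoderm was lost without WT replicate 2 (1.89, adjusted p = 0.00175) and with only the compared groups in the fit. The effect size at 48 h was not called different from that in undifferentiated cells in either lineage. The other assays did not show a difference of this size at day 0. In single cells Fgfr2 was at 9.26 (6.48 to 12.8) CPM in Mtf2 null and 7.36 (4.61 to 11.1) in WT, with overlapping 95% Poisson intervals. The bulk day 0 samples had the opposite order, with 3.38 CPM for the Mtf2 null label and 14.4 CPM in Pcl1-3 WT.

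In WT mesoderm Fgfr2 went from 4.45 and 3.35 CPM at 5 h to 0.719 and 0.442 CPM at 24 h and back to 4.33 and 3.75 CPM at 48 h, steps of -2.72 ± 0.30 and 2.80 ± 0.29 on the log2 scale. In Mtf2 null mesoderm the same times read 13.8 and 14.8, then 2.57 and 2.84, then 14.8 and 19.7 CPM. Fgfr2 was thus lowest at the end of the first induction step in both genotypes. WT endoderm had the same dip, with steps of -1.53 ± 0.25 and 2.24 ± 0.24 on the log2 scale, though the first of these was not called when any 1 of the 4 libraries was left out (-1.68 to -1.39, adjusted p from 0.00179 to 0.00496). Jarid2 null mesoderm stood above WT at 48 h, at 15.4 and 14.5 CPM, a log2 fold change over WT of 1.90 ± 0.19 (adjusted p = 1.9e-05, and 0.00784 with only the compared groups, which ends the call). In these Jarid2 null libraries lateral mesoderm markers summed to 13.99 to 17.68 CPM against 6.87 to 7.17 CPM in WT and pluripotent markers to 764.6 to 924 against 1275 to 1303 CPM, and their part was not tested. In Jarid2 null endoderm at 48 h the 10.9 and 13.1 CPM were above the 6.61 and 5.26 CPM of WT without reaching the call (0.99 ± 0.18, adjusted p = 0.00298).

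Fgfr3, a receptor best known from cartilage and neural tissue, showed the largest change of any member between mutant and WT. In endoderm at 48 h the WT libraries had 0.920 and 0.739 CPM, the Jarid2 null libraries 0.811 and 0.848 CPM and the Mtf2 null libraries 17.8 and 12.7 CPM. Only the Mtf2 null libraries were high, by a log2 fold change of 4.17 ± 0.29 (adjusted p = 2.63e-10), an 18.0-fold difference that was called under every alternative. In undifferentiated cells the order was the opposite, where Mtf2 null libraries had 8.36 to 9.78 CPM and WT libraries 11.7 to 13.5 CPM, and the change of the effect was 4.66 ± 0.37 on the log2 scale (edgeR test of the difference, adjusted p = 3.06e-08).

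Fgfr3 fell early in WT cells. Its level dropped from 12.7 and 12.1 CPM to 2.04 and 2.18 CPM within 5 h of endoderm induction, a log2 fold change of -2.51 ± 0.25 (adjusted p = 8.76e-07), and from 11.7 and 13.5 to 3.24 and 1.95 CPM in mesoderm, -2.28 ± 0.37 (adjusted p = 1.04e-04). The mesoderm step was not called without WT 5 h replicate 2 (-1.96, adjusted p = 0.00466) or without undifferentiated replicate 2 (-2.18, adjusted p = 0.00225). By 24 h WT libraries were at 0.0898 to 0.640 CPM in both lineages, and in WT mesoderm the level returned to 2.67 and 4.56 CPM at 48 h, a log2 fold change of 3.26 ± 0.54 that was not called without WT 24 h replicate 1 (2.58, adjusted p = 0.00615) or WT 48 h replicate 2 (2.82, adjusted p = 0.00293), or with only the compared groups (adjusted p = 0.0133). Without WT 24 h replicate 2 this step was 5.13. The WT endoderm step from 5 to 24 h, -1.89 ± 0.36, was not called when any 1 of its 4 libraries was left out (-2.07 to -1.73, adjusted p from 0.0062 to 0.0143).

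Mtf2 null mesoderm had 13.0 and 12.2 CPM of Fgfr3 at 48 h against 2.67 and 4.56 CPM in WT (1.82 ± 0.34, adjusted p = 4.28e-04), and Mtf2 null endoderm had 2.32 and 2.53 CPM at 24 h against 0.505 and 0.640 CPM in WT (2.09 ± 0.35, adjusted p = 1.16e-04). Neither pair of groups overlapped. Neither call held in every fit without 1 library. The mesoderm call ended without Mtf2 null replicate 1 (1.78, adjusted p = 0.00468), Mtf2 null replicate 2 (1.87, adjusted p = 0.00305) or WT replicate 1 (1.46, adjusted p = 0.0157). The endoderm call ended without WT replicate 1 (1.94, adjusted p = 0.0033), WT replicate 2 (2.27, adjusted p = 0.00187) or Mtf2 null replicate 2 (2.04, adjusted p = 0.00208).

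Fgfr4, the receptor of liver and definitive endoderm derivatives, stayed between 0.931 and 9.96 CPM in every directed library. Its highest values were the 9.06 and 9.96 CPM of Mtf2 null endoderm at 48 h, above the 4.02 and 3.51 CPM of WT by a log2 fold change of 1.32 ± 0.20 (adjusted p = 2.23e-05, and 1.22 with adjusted p = 0.00102 without WT replicate 2). At 24 h of mesoderm the order was the opposite, with 2.29 and 2.00 CPM in Mtf2 null and 6.11 and 7.14 CPM in WT (-1.63 ± 0.32, adjusted p = 7.67e-04), a call that ended when any 1 of the 4 libraries was left out (-1.72 to -1.52, adjusted p from 0.00324 to 0.0165) and with the replicate number as a block. Undifferentiated Jarid2 null libraries had 5.34, 7.21, 7.24 and 7.78 CPM and WT libraries 2.18, 2.35, 2.64 and 3.88 CPM. These groups did not overlap (1.32 ± 0.21, adjusted p = 5.08e-04), yet the call was lost in 6 of 8 fits that left out 1 library (without Jarid2 null mesoderm 2, endoderm 1 or endoderm 2, or WT mesoderm 2, endoderm 1 or endoderm 2), where the values over all 8 ran from 1.235 to 1.499, and under the replicate block. The call was also lost in the mesoderm series alone (0.972, edgeR adjusted p = 0.063) and with same-numbered libraries summed (1.33, adjusted p = 0.00694).

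**Figure D2:**
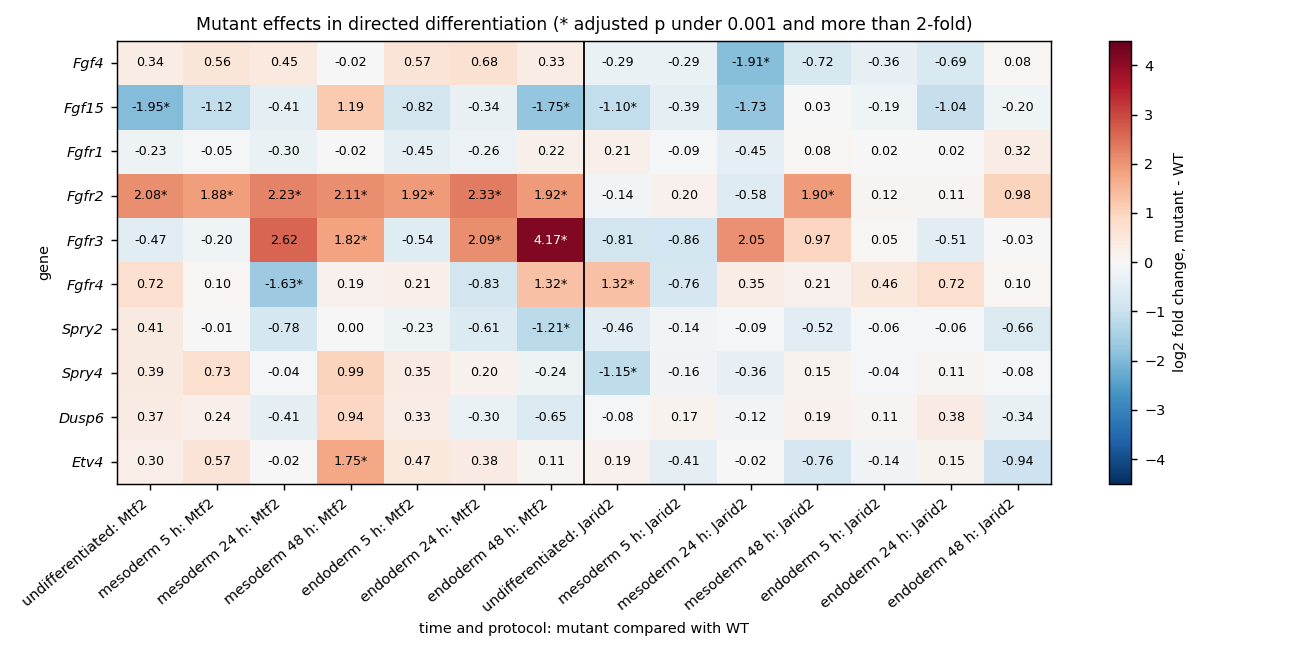
Heat map of the log2 fold change between mutant and WT for each gene (rows) in the undifferentiated, 5, 24 and 48 h comparisons of both protocols (columns, Mtf2 null left of the line and Jarid2 null right of it), with the value printed in each cell and an asterisk on called members. Fgfr2 is called in all 7 Mtf2 null columns, Fgfr3 reaches 4.17 in Mtf2 null endoderm at 48 h, and 5 cells are called on the Jarid2 null side.

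Spry2, an inhibitor between receptor and RAF, was lower in Mtf2 null than in WT cells at the end of endoderm induction. WT endoderm held 97.55 and 115.9 CPM at 48 h, Jarid2 null 68.5 and 68.7 CPM and Mtf2 null 45.01 and 47.75 CPM. The 3 genotypes did not overlap, and the Mtf2 null level was lower than WT by 1.21 ± 0.12 on the log2 scale (adjusted p = 8.03e-08), while the Jarid2 null difference of -0.66 ± 0.12 was not called. In undifferentiated cells the order of Mtf2 null and WT was the opposite, at 134.5 to 155.2 and 92.83 to 125.9 CPM, and the change of the effect was -1.59 ± 0.17 (edgeR test of the difference, adjusted p = 1.23e-06). Single cells at day 0 had less Spry2 in Mtf2 null, at 128 (117 to 139.8) CPM against 224.8 (208.1 to 242.5) in WT. The bulk day 0 samples had 107.1 CPM for the Mtf2 null label and 38.77 CPM in Pcl1-3 WT. In mesoderm at 48 h Mtf2 null (84.1 and 79.5 CPM) and WT (77.6 and 87.3 CPM) overlapped.

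Spry4, the other Sprouty gene of the set, was lower in undifferentiated Jarid2 null cells. Their libraries had 83.4, 86.0, 86.8 and 91.4 CPM, against 162, 164, 211 and 231 CPM in WT and 236, 239, 253 and 259 CPM in Mtf2 null. Every Jarid2 null library lay below every other library (-1.15 ± 0.10 against WT, adjusted p = 3.06e-06), and the call was lost in no fit that left out 1 library and only when same-numbered libraries were summed (adjusted p = 0.00169). The other assays did not show this order at day 0. In single cells Spry4 was at 195.6 (180.6 to 211.5) CPM in Jarid2 null and 188 (172.8 to 204.2) in WT. Mtf2 null, highest in the directed libraries, was lower there at 143.2 (131.5 to 155.6) CPM. The bulk day 0 samples had 122.6 CPM for the Jarid2 null label and 88.36 CPM in JM8. They had 192.9 CPM for the Mtf2 null label and 35.82 CPM in Pcl1-3 WT. At 5 h of the directed protocols the groups overlapped over both lineages, with 131 to 164 CPM in Jarid2 null and 148 to 167 CPM in WT. In WT endoderm Spry4 fell between 24 and 48 h from 156 and 157 to 62.7 and 58.4 CPM (-1.33 ± 0.13, adjusted p = 2.69e-07). In mesoderm at 48 h Mtf2 null libraries held 216 and 198 CPM against 104 and 106 CPM in WT, a log2 fold change of 0.99 ± 0.14 that lay just under the fold threshold of 1.

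Dusp6, the ERK phosphatase, took opposite courses in Mtf2 null cells of the 2 protocols without passing the fold threshold at any single time. At 48 h of mesoderm Mtf2 null had 96.4 and 93.7 CPM and WT 45.1 and 54.7 CPM (0.95 ± 0.13, adjusted p = 1.96e-05). At 48 h of endoderm Mtf2 null had 54.2 and 70.2 CPM and WT 94.5 and 99.8 CPM (-0.65 ± 0.13, adjusted p = 4.73e-04). Neither pair overlapped. The change of the Mtf2 null effect in endoderm was called at -1.04 ± 0.19 (adjusted p = 4.5e-04), and so was the lower change of WT mesoderm than of WT endoderm at -1.01 ± 0.20 (adjusted p = 9.92e-04). Both sit at the fold threshold. The first was lost without WT 48 h replicate 2 (-1.02), WT undifferentiated replicate 2 (-0.86), Mtf2 null 48 h replicate 1 (-0.88), or Mtf2 null undifferentiated replicate 1 (-1.04) or 2 (-1.05). The second was lost without mesoderm WT 48 h replicate 1 (-0.87), mesoderm WT undifferentiated replicate 1 (-0.83), endoderm WT 48 h replicate 2 (-0.98) or endoderm WT undifferentiated replicate 2 (-0.82), and under the replicate block.

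Etv4, the ETS factor induced by ERK, was higher in Mtf2 null than in WT mesoderm at 48 h. WT mesoderm had 118 and 123 CPM at 24 h and 15.6 and 30.8 CPM at 48 h, a fall by 2.40 ± 0.19 on the log2 scale (adjusted p = 1.83e-08). Mtf2 null mesoderm still held 79.7 and 74.1 CPM at 48 h and Jarid2 null 14.2 and 12.7 CPM. The Mtf2 null libraries were above all others at this time (1.75 ± 0.19 against WT, adjusted p = 7.01e-07), with values from 1.32 to 2.33 when 1 library was left out, each of them called. That this effect grew from the undifferentiated state was called at 1.44 ± 0.26 (adjusted p = 7.78e-04) and lost without either Mtf2 null 48 h library (1.38 and 1.48), either Mtf2 null undifferentiated library (1.34 and 1.52) or either WT undifferentiated library (1.33 and 1.54), and under the replicate block.

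In endoderm at 48 h Etv4 stood at 32.8 and 42.6 CPM in WT, 39.1 and 42.8 CPM in Mtf2 null and 20.2 and 19.7 CPM in Jarid2 null. WT and Mtf2 null overlapped and the Jarid2 null libraries were lower (-0.94 ± 0.14, adjusted p = 7.76e-04, under the fold threshold). The change of the Jarid2 null effect was called at -1.17 ± 0.19 (adjusted p = 8.3e-04), but not under the replicate block or without WT 48 h replicate 2 (-0.999), WT undifferentiated replicate 1 (-1.27) or 2 (-1.10), Jarid2 null 48 h replicate 1 (-1.20) or 2 (-1.14), or Jarid2 null undifferentiated replicate 1 (-1.06). In WT endoderm Etv4 fell from 88.4 and 84.3 CPM at 24 h by 1.16 ± 0.13 on the log2 scale (adjusted p = 1.67e-06), which stayed just under the fold threshold without WT 48 h replicate 1 (-0.99).

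The other genes of the pathway were taken from a list of 69 FGF ligands, receptors and co-receptors, relay proteins, feedback inhibitors and ERK-induced transcription factors that includes the 10 members. In undifferentiated cells 6 of 52 tested genes were called up and 3 down in Mtf2 null, beside 14.7% of all genes called, and 2 up and 5 down in Jarid2 null, beside 1.15%. At 48 h, Mtf2 null had 9 up and 0 down of 55 in mesoderm (6.82% of all genes called) and 8 up and 5 down of 59 in endoderm (10.5%). Jarid2 null had 1 up and 0 down of 55 in mesoderm (0.169%) and 0 of 59 in endoderm (0.125%). Of the 18 relay genes between receptor and ERK, edgeR called 2 up in undifferentiated Mtf2 null cells (Sos2 and Braf), 1 up at 5 h of mesoderm (Sos2), 0 at 5 h of endoderm, and 0 at 24 and 48 h in either lineage. Of the 8 ERK-induced transcription factors tested in Mtf2 null mesoderm, 2 were called up and 1 down at 5 h (7.56% of all genes called). At 24 h 1 was up and 1 down (5.72%), and at 48 h 4 were up. In endoderm 2 of 8 were up and 1 down at both 5 h (7.61%) and 24 h (6.58%), and 0 up and 1 down at 48 h. In undifferentiated Mtf2 null cells 0 of 7 were up and 1 down. Of the 7 receptors and co-receptors in Mtf2 null, 2 were up undifferentiated. In mesoderm 2, 2 and 3 were up at 5, 24 and 48 h, with 1 down at 24 h, and in endoderm 2, 3 and 4 up.

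Klb, the co-receptor that FGF15 needs, moved most. At 48 h of endoderm Klb read 57.8 and 44.7 CPM in Mtf2 null, 0.811 and 0.718 CPM in Jarid2 null and 0.502 and 0.369 CPM in WT, a log2 fold change between Mtf2 null and WT of 6.83 ± 0.35 (edgeR adjusted p = 1.75e-12). In mesoderm at 48 h Klb read 15.2 and 14.4 CPM against 0.333 and 0.163 CPM (5.82 ± 0.46, adjusted p = 7.32e-09), and it was already called in undifferentiated cells (2.51 ± 0.34). The visceral endoderm markers were higher in the same libraries, and their part in the Klb values was not tested.

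Among feedback inhibitors outside the set, Dusp5, a nuclear ERK phosphatase, was called up in Mtf2 null in all 7 comparisons, from 1.11 ± 0.21 at 48 h of mesoderm to 2.19 ± 0.23 at 5 h. Dusp4, another nuclear ERK phosphatase, was called up in undifferentiated Mtf2 null (2.40 ± 0.16) and Jarid2 null cells (1.34 ± 0.16). Dusp5 and Egr1 are followed over all comparisons here after their values were seen. The early-response gene Egr1 was called up in Mtf2 null at 5 and 24 h of both lineages, by 1.95 ± 0.28 to 3.09 ± 0.43 on the log2 scale, and at 48 h of mesoderm by 1.34 ± 0.27. Egr1 was not called in Mtf2 null at 48 h of endoderm (-0.76 ± 0.32, adjusted p = 0.0689) or in undifferentiated cells (-0.004 ± 0.161, adjusted p = 0.989), and in undifferentiated Jarid2 null cells it was called down (-1.94 ± 0.18). At 24 h of mesoderm in Jarid2 null, where Fgf4 was low, Egr1 (2.61 ± 0.28) and Fos (2.88 ± 0.46) were called up and Fgf17 (-1.60 ± 0.28) and Myc (-1.13 ± 0.20) down. Fgf5, a ligand of the primed epiblast, went in WT endoderm from 0.144 and 0.448 CPM at 24 h to 18.7 and 15.1 CPM at 48 h (5.79 ± 0.38, adjusted p = 9.85e-10), the same step at which Fgf15 rose.

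In the bulk embryoid bodies the targeted genes stayed expressed in the lines named for their loss, so the libraries are called by their labels. Mtf2 ranged from 166 to 323.9 CPM in the line with the Mtf2 null label and from 316.5 to 432.6 CPM in Pcl1-3 WT. Jarid2 was lower than in JM8 on 2 of 4 days in the line labelled Jarid2 null, and Eed lower than in J1 on 1 of 4 days in the line labelled Eed null. Each line and day was 1 sample, compared over the 4 days with day as a block by limma on log2 CPM with a prior count of 2, and a call needed an adjusted p under 0.05. By that rule 4 of 10 members were up in the line labelled Mtf2 null (17.7% of 15842 genes called), 2 up in the line labelled Jarid2 null (14.6%) and 1 up in the line labelled Eed null (11.1%). Day and line are the only replication here, and with no block for the day none of the 7 calls was made. With edgeR on the recovered whole reads, a check chosen after seeing the data, 2537, 2148 and 1314 genes were called for the Mtf2 null, Jarid2 null and Eed null labels, beside 2803, 2308 and 1756 by limma.

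Dusp6, the ERK phosphatase, was higher on each day in all 3 labelled lines. In the line labelled Eed null it read 46.6, 60.2, 140 and 83.3 CPM over days 0, 2, 4 and 7, while J1 read 15.45, 27.03, 57.19 and 28.59, lower on 4 of 4 days (1.38 ± 0.26, adjusted p = 0.00682, and 1.41 with adjusted p = 0.0545 without day 4). For the Mtf2 null label Dusp6 read 71.2, 79.5, 107 and 74.4 CPM, and Pcl1-3 WT had 15.8, 21.1, 57.8 and 56.1 CPM (1.33 ± 0.26, adjusted p = 0.00449). The line labelled Jarid2 null had 44.4, 105, 111 and 69.4 CPM against 24.7, 38.1, 99.1 and 61.5 CPM in JM8, higher on each day but not called.

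Spry4 for the Mtf2 null label read 193, 265, 73.8 and 48.2 CPM, and Pcl1-3 WT had 35.8, 83.8, 39.2 and 29.8 CPM. It was higher on 4 of 4 days (1.42 ± 0.32, adjusted p = 0.00864, and 1.084 with adjusted p = 0.0573 without day 0). Fgfr1 (0.81 ± 0.20, adjusted p = 0.0137) and Fgfr4 (1.41 ± 0.39, adjusted p = 0.0257) were also called in that line. Without day 2 Fgfr1 was at 0.83 (adjusted p = 0.0565) and Fgfr4 at 1.52 (0.0634), without day 7 at 0.70 (0.0865) and 1.10 (0.0804), and without day 4 Fgfr4 was at 1.44 (0.114). In the line labelled Jarid2 null, Fgfr4 read 8.36, 3.92, 3.89 and 16.7 CPM against 3.29, 0.938, 0.536 and 1.17 CPM in JM8 (2.16 ± 0.39, adjusted p = 0.00334). In that line Fgf15 read 2.99, 9.20, 13.5 and 20.4 CPM against 0.844, 3.77, 0.985 and 7.40 CPM (1.86 ± 0.44, adjusted p = 0.0141). The Fgf15 call was lost without day 2 (2.06, adjusted p = 0.0578), day 4 (1.36, 0.0997) or day 7 (2.00, 0.0574). The summed visceral endoderm markers at day 7 were 1622 CPM for the Mtf2 null label beside 0.987 CPM for its WT line, 303.4 against 30.4 CPM for the line labelled Jarid2 null and JM8, and 686.3 against 364.7 CPM for the line labelled Eed null and J1, and their part in these values was not tested.

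In the 3 WT lines most calls fell between days 2 and 4, when Fgf4, Spry4 and Etv4 fell and Fgfr1, Fgfr2 and Dusp6 rose. These 6 of 10 members were called beside 14.9% of 15025 genes, with 1 member down from day 0 to 2 (4.99% of genes called). None was called from day 4 to 7 by limma (0.18% of genes called), where 1 member had an unadjusted p under 0.05 and edgeR on the recovered reads called 0. Etv4 went from 94.9, 89.0 and 49.8 CPM in Pcl1-3 WT, JM8 and J1 to 15.7, 15.2 and 25.8 CPM (-1.998 ± 0.333, adjusted p = 0.00397). Fgfr2 went from 8.43, 14.3 and 10.6 CPM to 46.0, 38.6 and 50.7 CPM (2.02 ± 0.25, adjusted p = 0.00137). All 3 lines moved the same way for both genes, with no overlap between the days. Fgf4 fell by 2.33 ± 0.72, Spry4 by 2.02 ± 0.45, Fgfr1 rose by 1.28 ± 0.19 and Dusp6 by 1.30 ± 0.22 on the log2 scale. The Fgf4 step was -1.49 without J1 and -2.99 without Pcl1-3 WT, and its call ended with no low-value filter (adjusted p = 0.0588) and with no block for the line (adjusted p = 0.0847). The calls depended on JM8: without it none of the 6 was made, with values of -2.46 for Fgf4, 1.43 for Fgfr1, 2.33 for Fgfr2, -1.979 for Spry4, 1.285 for Dusp6 and -1.73 for Etv4 and adjusted p from 0.0534 to 0.259. The Fgfr4 step from day 0 to 2 (-2.11 ± 0.47) was lost without any 1 line, at -1.95 without Pcl1-3 WT, -2.44 without JM8 and -1.91 without J1. In this step time and the change from monolayer to embryoid body cannot be told apart.

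**Figure D3:**
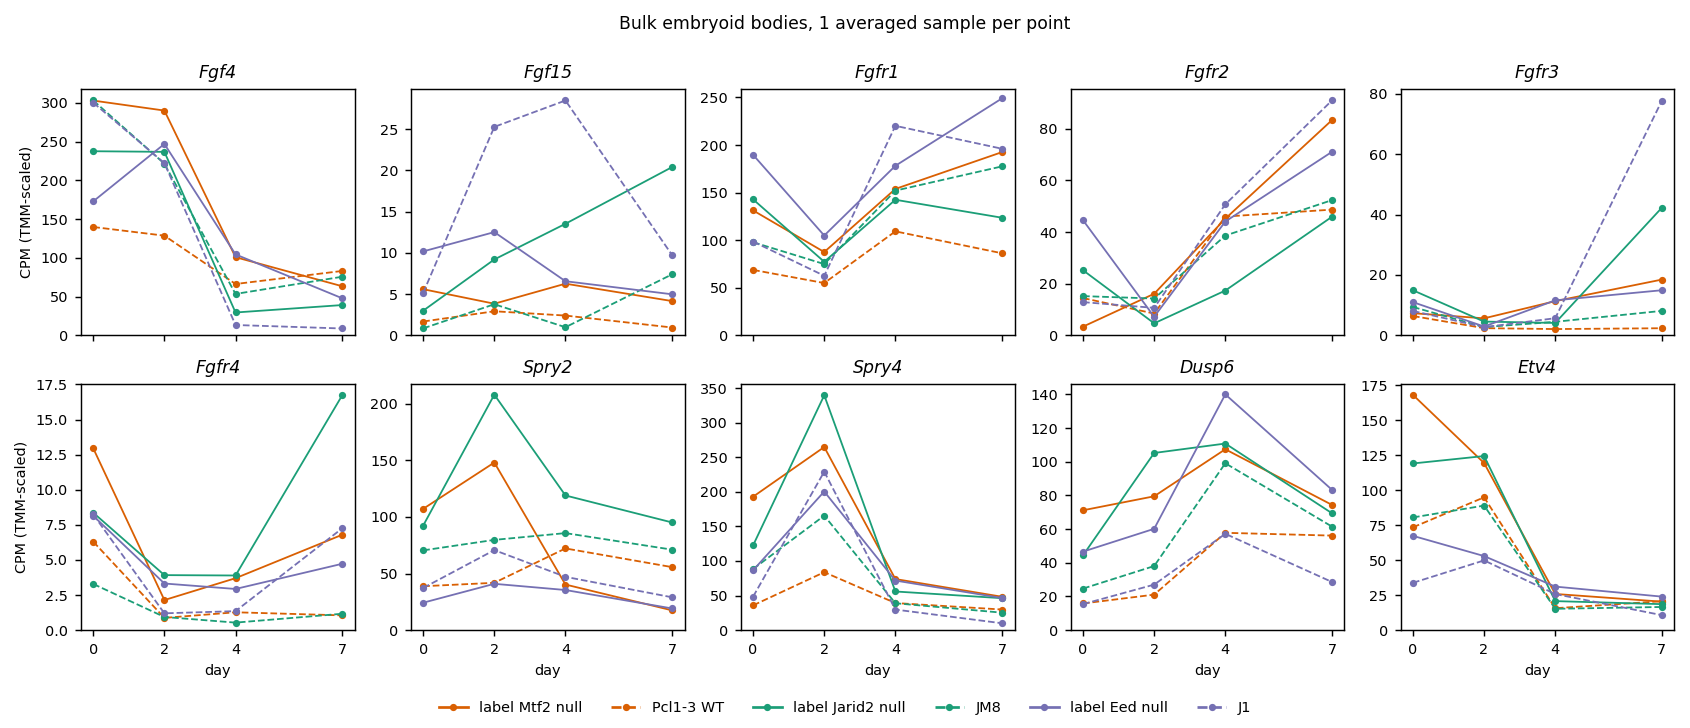
Level of each of the 10 genes in CPM (linear axes that start at 0) at days 0 (columns headed as monolayers), 2, 4 and 7 of the bulk embryoid body series, with 1 point per line and day, solid lines for the 3 lines labelled as mutants and dashed lines for the 3 WT lines. Etv4 lies higher at days 0 and 2 than at days 4 and 7 in every line, Spry4 is highest at day 2 in every line, and Fgfr2 of the WT lines is higher at days 4 and 7 than before.

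In single cells each genotype and day was 1 library, so values are given without tests as UMI CPM with 95% Poisson intervals that cover counting error only. The targeted genes followed the labels: Mtf2 stood at 53.7 to 61.1 CPM in Mtf2 null and 364.8 to 793.5 CPM in WT libraries, and Eed at 1.33 to 11.5 CPM in Eed null and 115 to 478 CPM in WT. Jarid2 stood at 115 to 184.7 CPM in Jarid2 null and 214.6 to 594.5 CPM in WT. Every well barcode occurs in more than 1 of the 16 libraries, since the plates share 1 barcode set. In WT, Fgf4 dropped from 270.0 (252 to 289) CPM at day 0 to 129.3 (114.5 to 145.5) at day 4 and 24.5 (18.3 to 32.1) at day 7, while Fgfr2 climbed from 7.36 (4.61 to 11.1) to 34.3 (25.3 to 45.5) CPM and Fgfr1 from 67.9 (58.9 to 77.9) to 122 (104 to 141) CPM by day 10. From day 0 to day 10 Fgf4 was lower and both receptors were higher in each of the 3 mutants too. Fgf4 and these 2 receptor genes thus took opposite courses between day 0 and day 10.

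At day 7 Fgf4 was highest in the Eed null and Jarid2 null libraries. It was at 84.05 (72.75 to 96.61) CPM in Eed null, 69.26 (57.95 to 82.13) in Jarid2 null, 24.5 (18.3 to 32.1) in WT and 16.6 (11.9 to 22.6) in Mtf2 null. The intervals of the first 2 did not overlap with those of the other 2. Fgf15 in WT peaked at day 7 with 164.3 (147.5 to 182.5) CPM and was at 35.05 (25.93 to 46.34) by day 10, while in Mtf2 null it was highest at day 10, at 131 (116 to 147) CPM, and in Eed null at day 0, at 43.9 (37.1 to 51.5) CPM.

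Spry2, the inhibitor upstream of RAF, differed between genotypes. At day 0 WT had 224.8 (208.1 to 242.5) CPM, Mtf2 null 128 (117 to 140), Jarid2 null 125.5 (113.6 to 138.4) and Eed null 61.8 (53.8 to 70.8). At day 7 the WT library was again highest at 251 (230 to 273) and Eed null lowest at 64.5 (54.7 to 75.6), and at day 4 Eed null had 15.1 (10.4 to 21.1) CPM. Spry4 and Etv4 were lower at every later day than at day 0 in each genotype. Etv4 went in WT from 77.9 (68.3 to 88.6) CPM at day 0 to 9.34 (5.70 to 14.4) at day 4 and to 1 UMI at day 10, whereas at day 4 Jarid2 null still had 52.3 (43.8 to 62.1), Eed null 43.9 (35.6 to 53.4) and Mtf2 null 24.9 (19.3 to 31.6) CPM. Spry4 at day 4 read 132 (118 to 147) CPM in Jarid2 null and 27.6 (21.0 to 35.5) in WT.

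Dusp6 had no single trend, with its highest WT value, 178.5 (160.9 to 197.4) CPM, at day 7, where Fgf15 and Spry2 of WT were highest too. Fgfr3 was counted in 168 UMIs over all cells and was higher late, at 32.1 (23.2 to 43.2) CPM in Eed null at day 10 against 12.2 (7.08 to 19.5) in WT. In Jarid2 null at day 4 it had 0 UMIs of 2522631, with an interval up to 1.46 CPM, and intervals of the other genotypes at that day reached above this. Fgfr4, read from the per-plate tables, had 0 to 5 UMIs per library and its course cannot be read at this depth.

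**Figure D4:**
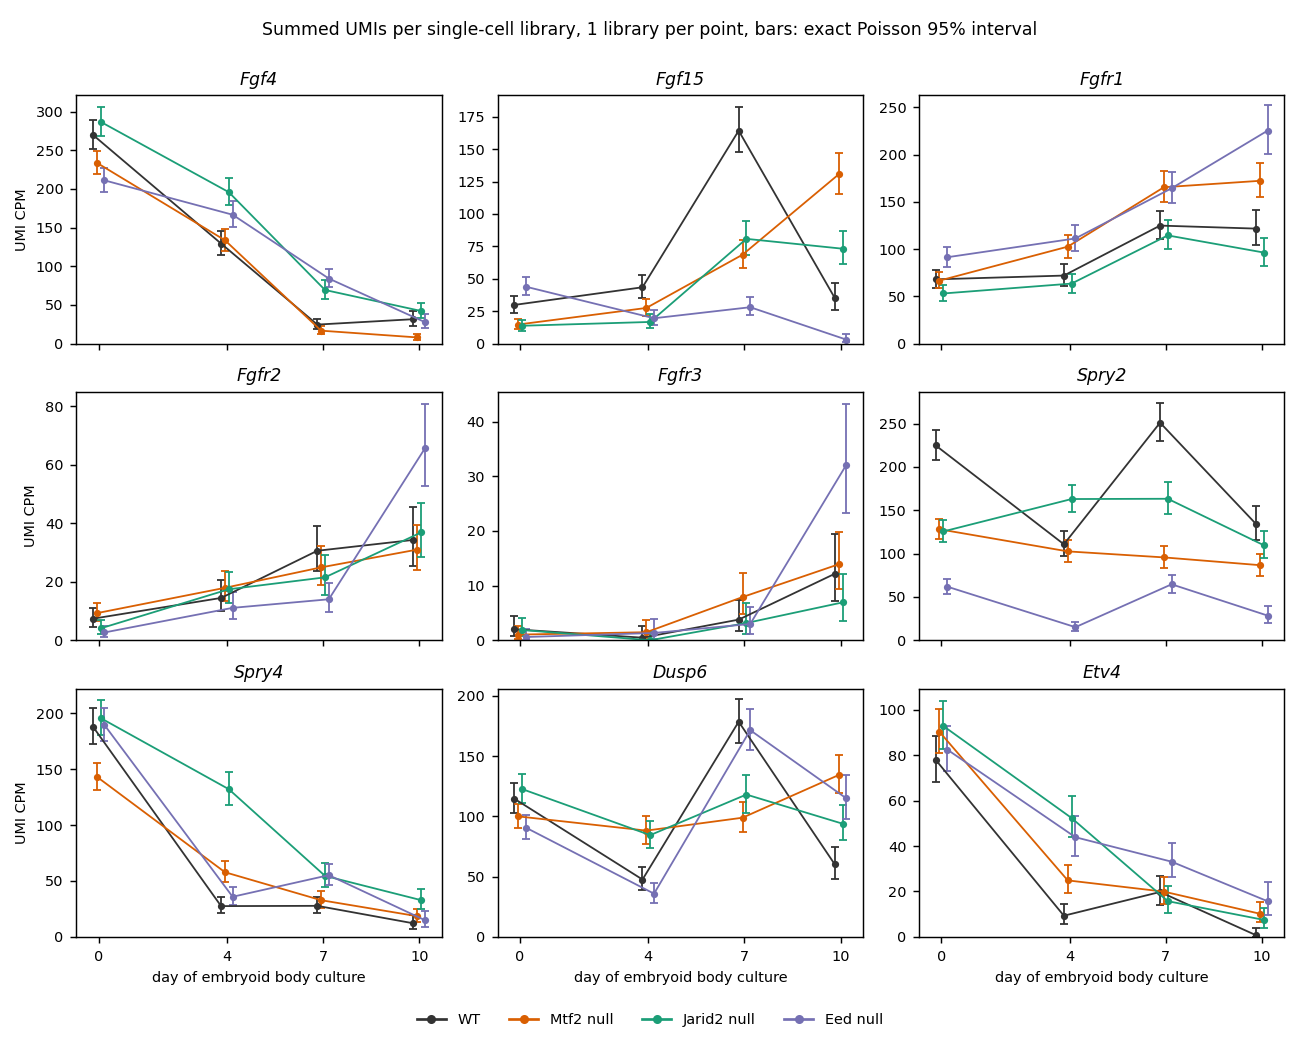
UMI CPM (linear axes) with 95% Poisson intervals for 9 genes at days 0, 4, 7 and 10 in 4 genotypes, 1 library per point. Fgf4, Spry4 and Etv4 are lower at each later day than at day 0 in each genotype, Fgfr1 and Fgfr2 are higher at day 10 than at day 0, and Spry2 of Eed null lies below WT at every day.

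Levels over the 22 deposited clusters of the 4949 cells are a description, since the clusters were made from these same counts. The 4 highest values of Fgf4, Spry4 and Etv4 were in the 4 clusters that are mostly undifferentiated cells, cluster 8 (89.4% from day 0, mainly Jarid2 null), cluster 3 (98.2%, WT), cluster 0 (90.7%, Mtf2 null) and cluster 6 (92.4%, Eed null). Fgf4 had 321 (299 to 344) CPM in cluster 8, 267 (249 to 287) in cluster 3, 226 (212 to 242) in cluster 0 and 210 (194 to 227) in cluster 6. Cluster 5, mostly Jarid2 null cells and 10.5% from day 0, held 207.6 (190.6 to 225.6) CPM of Fgf4, an interval that overlapped with that of cluster 6. Spry2 was highest in cluster 3, at 223 (206 to 241) CPM, and lower in the Eed null cluster 6, at 66.7 (57.8 to 76.5). Its lowest values were in cluster 9 at 16.6 (10.7 to 24.8), cluster 18 at 20.8 (12.3 to 32.9) and cluster 10 at 23.01 (17.08 to 30.34) CPM, and clusters 9 and 10 are mostly and wholly Eed null cells. In cluster 6, Spry4 was at 199 (183 to 216) CPM.

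Receptors led in other clusters. Fgfr1 was highest in clusters 13 and 4, at 234.2 (210.5 to 259.9) and 225.5 (206 to 246.4) CPM. Fgfr2 was highest in the same 2 at 60.03 (48.34 to 73.71) and 60.05 (50.21 to 71.26) CPM, and so was Fgfr3 at 29.69 (21.65 to 39.72) and 25.7 (19.4 to 33.3) CPM. Each pair of values overlapped. Lateral mesoderm markers summed to 752 CPM in cluster 13 (mainly Eed null at day 10) and 1160 CPM in cluster 4 (WT and Mtf2 null at days 7 and 10). The receptors were not high in every cluster with these markers. Cluster 19, with the highest sum at 1325 CPM, had 1 UMI of Fgfr2, 0 UMIs of Fgfr3 and 94.3 (67.4 to 128) CPM of Fgfr1 in 57 cells, and cluster 14, at 513 CPM, had 14.9 (9.36 to 22.6) CPM of Fgfr2. Fgf4 was at 31.01 and 4.584 CPM in clusters 13 and 4 and Etv4 at 17.8 and 5.96 CPM.

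Fgf15 had 47.4% of its UMIs in clusters 15, 1 and 14, and Fgf4 had 45.9% in its own top 3. Cluster 15, highest in neural ectoderm markers (335 CPM summed), held 378 (338 to 421) CPM, and clusters 1 and 14 held 120 (107 to 133) and 113 (96.2 to 131) CPM. Dusp6 was highest in cluster 16, mainly Eed null at day 7, at 222 (195 to 251) CPM, followed by cluster 14, highest in primitive streak markers (1687 CPM summed), at 195.5 (173.5 to 219.4), and cluster 15 at 188 (160 to 219). Cluster 18, mostly day 10 cells and 55.3% from the WT library of that day, was low throughout, with Fgfr1 at 12.7, Dusp6 at 17.3 and Spry4 at 1.155 CPM and 0 UMIs of Etv4. Cluster 21, with the most definitive and visceral endoderm markers (624.7 and 500.2 CPM summed), had 0 UMIs of Fgf4 and 12.0 (3.89 to 27.9) CPM of Fgfr3.

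**Figure D5:**
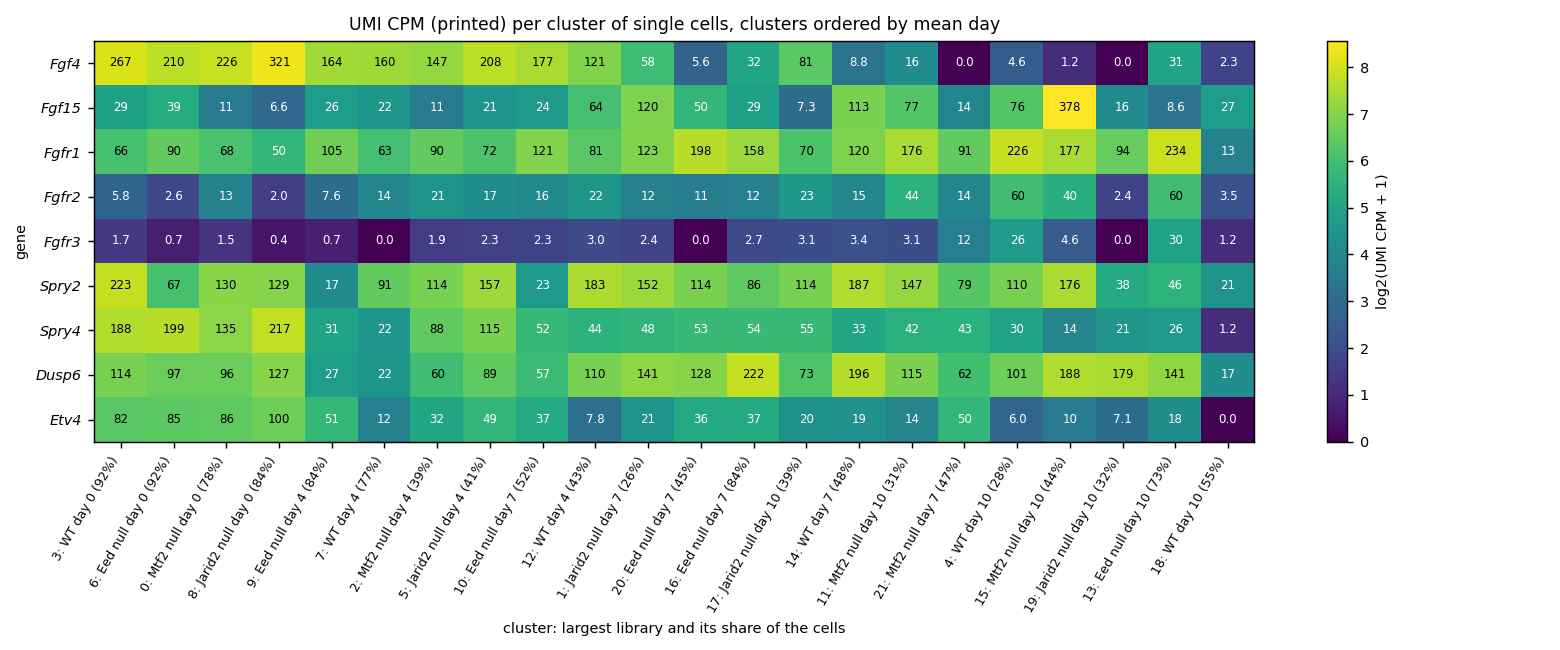
Heat map of the UMI CPM (printed) of 9 genes (rows) in the 22 clusters (columns, ordered by mean day and named by their largest library), coloured by log2 of CPM plus 1 with high values bright. Fgf4, Spry4 and Etv4 are brightest in the day 0 clusters 8, 3, 0 and 6, the 3 receptors in clusters 13 and 4, and Fgf15 in cluster 15.

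In 3 clusters that held cells of several genotypes, Spry2 was higher in WT than in Mtf2 null cells. Cluster 18, with 69 WT and 32 Mtf2 null cells, held only 18 UMIs of Spry2 in all and is not compared here. In cluster 4 Spry2 was at 204 (173 to 239) CPM in 122 WT cells and 56.55 (43.55 to 72.21) in 159 Mtf2 null cells. In cluster 14 it was at 250.5 (216 to 289) in 97 WT and 84.2 (62.1 to 112) in 72 Mtf2 null cells, and in cluster 1 it was at 298 (246.5 to 357.2) in 51 WT and 109 (93.6 to 127) in 167 Mtf2 null cells. WT was higher in all 3 with intervals that did not overlap. Jarid2 null lay near Mtf2 null in cluster 4, at 81.9 (52.5 to 122), and near WT in cluster 14, at 271.1 (194.5 to 367.8) in 20 cells. The cells of a genotype come from at most 4 libraries, and the spread between cultures is not in these intervals. Within a cluster the mix of days was not matched between genotypes, so genotype and day cannot be told apart there.

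Fgf15 within cluster 1 was ordered likewise, with 265 (217 to 321) CPM in WT, 133 (111 to 158) in Jarid2 null and 73.6 (60.8 to 88.3) in Mtf2 null, but in cluster 15 Mtf2 null had 452 (394 to 515) and Jarid2 null 224 (169 to 290) CPM. Inside cluster 4, Fgfr1 was at 244.6 (210.3 to 282.8) CPM in WT, 239.4 (211.8 to 269.7) in Mtf2 null and 133.1 (94.67 to 182) in Jarid2 null, whose interval overlapped with neither of the others. Fgfr2 was at 67.2 (49.9 to 88.6) CPM in WT, 57.4 (44.3 to 73.2) in Mtf2 null and 54.6 (31.2 to 88.7) in Jarid2 null, and Fgfr3 at 22.8 (13.3 to 36.6), 30.92 (21.54 to 43.01) and 13.65 (3.72 to 34.96) CPM, with overlapping intervals for Fgfr2 and Fgfr3. Fgf4 in cluster 1 was at 7.64 (1.58 to 22.3) CPM in WT cells and at 62.1 (50.3 to 75.7) and 74.5 (58.4 to 93.7) CPM in Mtf2 null and Jarid2 null cells.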

How the data were processed

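RNA was measured in 48 directed-differentiation libraries, 24 bulk embryoid body samples and 16 single-cell libraries. The authors made the directed tables as estimated counts per gene with Salmon against GRCm38, summed to genes, and deposited them without normalization. The bulk embryoid body values were deposited as a signal, gene counts that the authors had divided by a size factor per column. Whole reads were recovered from 45 of 46 columns (100% of values whole within 0.02 of a read), and columns of 1 line and day were averaged to 1 sample. Single-cell UMI counts and cluster names were used as deposited by the authors, who made them with Bowtie2, HTSeq and Seurat, the last with the library regressed out.

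Estimated counts were rounded to whole numbers (74.9% and 73.1% of values were whole), filtered with filterByExpr at a minimum count of 10, TMM-scaled and tested with the quasi-likelihood test of edgeR 4.0.16 in R 4.3.3, with all groups of a table in 1 fit. Embryoid body values were tested with limma 3.58.1 on log2 CPM (prior count 2) after genes under 1 CPM in all but a few samples were left out (4 samples had to reach it, 3 for the WT days), and a day step also needed an absolute log2 fold change above 1. DESeq2 1.42.0, other scalings, filters and blocks, and leaving out each library were run as alternatives. CPM per kilobase divides by summed exon length. Single-cell intervals are exact Poisson intervals at 95%, also for a count of 0. Totals ranged from 9111880 to 16898264 estimated counts per directed library, and intervals cover counting error only. Samples were grouped by their labels. The members, the pathway list and the marker lists were chosen with earlier results of these data known. Besides the 10 members, the rule named per comparison at most the 2 called pathway genes with the largest change up and the 2 with the largest down. The edgeR and limma fits were tested on simulated data. Fold changes on the log2 scale of low genes are drawn towards 0 by the prior count.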

Additional observations from a re-analysis of the deposited data

Results flagged for a closer look

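Dixon's test was applied to each of the 10 genes in each genotype's 4 undifferentiated libraries, 30 groups in all, and 2 of them held a library far from the other 3. Fgfr1 in Jarid2 null stood at 72.39 CPM in 1 library and at 65.05, 65.54 and 65.94 CPM in the others. Fgfr2 in WT stood at 3.381 CPM in 1 library and at 2.842, 2.9 and 2.914 CPM in the others. Chance alone flags about 1 group in 20.

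A mutant effect at 48 h that differed from the effect in undifferentiated cells, by edgeR's test of the difference, was found for 4 genes. In Mtf2 null endoderm the effect on Fgfr3 changed by 4.66, that on Spry2 by -1.59 and that on Dusp6 by -1.04 on the log2 scale. In Mtf2 null mesoderm the effect on Etv4 changed by 1.44, and in Jarid2 null endoderm by -1.17. The WT change to 48 h was lower in mesoderm than in endoderm for Fgf15, by a difference of -5.96, and for Dusp6, by a difference of -1.01.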

How the results depend on the processing

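Of 55 member calls, 17 were made under every alternative. Over 580 combinations of call and alternative, 463 were kept, 117 were lost and 0 turned direction, and the cause of the losses was not tested. With only the compared groups in the fit, the 8 calls between mutant and WT mesoderm became 5, the 6 WT mesoderm steps 1 and the 7 WT endoderm steps 2, a fit that holds fewer samples. The 5 changes of the mutant effect became 9 with DESeq2, 10 with no low-count filter and 3 with the replicate block, and the 2 lineage differences became 1 with library totals and 1 with the replicate block. The 5 undifferentiated calls became 3 in the mesoderm series alone and 2 with same-numbered libraries summed, both chosen after seeing the data. The 7 calls between labelled embryoid body lines became 0 with no block for the day. Leaving out 1 library gave 6 to 10 calls between mutant and WT in mesoderm, 5 to 8 WT mesoderm steps, 7 to 9 calls in endoderm, 5 to 8 WT endoderm steps, 3 to 6 changes of the effect, 1 to 3 lineage differences and 3 to 5 undifferentiated calls. Leaving out a day gave 4 to 9 embryoid body label calls, and leaving out a line gave 0 to 6 day steps, with 0 without JM8. Same-numbered libraries deviated together in some pairs of groups and apart in others. The r ran from -0.47 to 0.47 in mesoderm (median -0.01) and from -0.4 to 0.46 in endoderm (median 0.06). It was above 0.1 in 24 and 27 of 66 pairs, so whether the numbers pair the libraries is not settled. The replicate block gave 7 calls between mutant and WT in mesoderm and 8 in endoderm. Counts over all genes that moved by more than 1.5 times follow, the value in the main analysis first.

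With DESeq2, Jarid2 null calls went from 0 to 11 at 5 h and 31 to 48 at 48 h of mesoderm, and from 6 to 12 at 24 h and 24 to 59 at 48 h of endoderm, and the changes of the Jarid2 null effect from 10 to 68 in mesoderm and 99 to 211 in endoderm. With no low-count filter, Jarid2 null calls went from 0 to 175, 362 to 736 and 31 to 147 in mesoderm, 7 to 64, 6 to 74 and 24 to 166 in endoderm and 191 to 364 in undifferentiated cells. The first WT step went from 759 to 1170 in mesoderm and 405 to 672 in endoderm, the changes of the effect from 497 to 1035 and 10 to 241 (mesoderm) and 1010 to 1522 and 99 to 408 (endoderm) for Mtf2 null and Jarid2 null, and the lineage differences from 264 to 472. With only the compared groups, Jarid2 null calls went from 0 to 2, 362 to 8 and 31 to 0 in mesoderm and 7 to 13 at 5 h and 24 to 10 at 48 h in endoderm, and the first and last WT steps from 759 to 167 and 763 to 174 in mesoderm and 405 to 184 and 747 to 192 in endoderm. Undifferentiated Jarid2 null calls went from 191 to 68 in the mesoderm series alone and to 85 with libraries summed. In the embryoid bodies, calls for the Mtf2 null, Jarid2 null and Eed null labels went from 2803, 2308 and 1756 to 573, 503 and 178 with no day block, 1855, 782 and 493 without day 2, 958, 650 and 243 without day 4, and 1164, 1126 and 784 without day 7. The 3 day steps went from 749, 2232 and 27 to 34, 1158 and 6 with no line block, 0, 37 and 0 without JM8, 216, 2435 and 468 without Pcl1-3 WT, and 408, 1899 and 66 without J1, and the last also to 13 with a prior count of 0.5 and 49 with no filter.

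Library totals moved the median log2 fold change of all genes by over 0.1, for Mtf2 null from -0.038 to -0.251 in undifferentiated cells, -0.006 to -0.16 and 0.007 to -0.104 at 5 and 48 h of mesoderm, and -0.024 to -0.21, -0.004 to -0.172 and -0.017 to -0.182 in endoderm, for Jarid2 null at 24 h of mesoderm from -0.039 to 0.086, and for the first and last WT mesoderm steps from -0.076 to -0.206 and -0.005 to 0.113. The share of calls that were higher moved with it, for Mtf2 null from 55.2% to 38.3% undifferentiated, 45.6% to 35% at 5 h of mesoderm and 47% to 32%, 54.3% to 40.4% and 60.4% to 48.6% in endoderm, for Jarid2 null at 24 h of mesoderm from 37.3% to 61.5%, for these WT steps from 55.5% to 31.3% and 58.1% to 68.4%, and for the changes of the effect from 38.8% to 49.4% and 90% to 72.7% in mesoderm (Mtf2 null, Jarid2 null) and 35.4% to 48.1% in Jarid2 null endoderm. Of 36 single-cell values at day 0, 12 moved out of their interval when cells were thinned to 2500 UMIs, 2 as a mean over cells and 0 over all wells.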

Other observations

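Other FGF ligands than the 10 members were also called in Mtf2 null endoderm at 48 h by edgeR, Fgf10 (3.10 ± 0.42, adjusted p = 4.29e-06) up and Fgf1 (-3.10 ± 0.52, adjusted p = 7.22e-05) and Fgf11 (-1.51 ± 0.23, adjusted p = 2.35e-05) down. Fgf10 encodes a ligand of an FGFR2 splice form.

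Over the 24 group means of the directed libraries and 12819 genes, the genes whose log2 levels ran most like those of a member are given with Pearson's r, as a description over means that share libraries. For Fgfr2 they were Nav2 (0.92) and Vwa2 (0.91), for Etv4 Arrdc4 (0.923) and Chchd4 (0.904), for Fgfr3 Tfpi (0.874) and H1fx (0.871), and for Fgf4 Ndufb3 (0.856) and Nav2 (0.852). Nav2 was thus among the nearest genes of both Fgf4 and Fgfr2. For Spry4 the list held Ripk3 (0.832) and Spred1 (0.823), and SPRED1 is itself an inhibitor of RAS to ERK signalling. For Fgf15 they were Igfbp2 (0.808) and Gpd1l (0.791).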
